A study of Mus musculus with 8 samples.

Results

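The guidance genes described here are the semaphorins, plexins, neuropilins, ephrins, Eph receptors, Slits and Robos, with netrins and their receptors and the Flrt, Slitrk and Dpysl genes. They were taken from the deposited gene table by symbol (Sema, Plxn, Nrp, Efn, Eph, Slit, Robo, Ntn, Neo1, Unc5, Dcc, Flrt, Slitrk, Crmp or Dpysl followed by its number or letter) among protein-coding genes. The rule found 51 of the 8278 genes in the table. Of 88 genes of these families in the GENCODE annotation of the same mouse build, the table held 16 of 20 semaphorins, 9 of 11 plexins and neuropilins, 6 of 8 ephrins, 6 of 14 Eph receptors, 3 of 7 Slit and Robo genes, 6 of 14 netrins with their receptors, 2 of 3 Flrt genes, 1 of 6 Slitrk genes and 2 of 5 Crmp and Dpysl genes. The others, among them *Robo1* and *Robo4*, were not analysed here.

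The question of the comparison was how gene expression in mouse cardiac endothelial cells (MCECs, an established cell line) changes when *Hdac3*, the gene of a histone deacetylase, is knocked out. Bulk RNA-Seq was done on 4 *Hdac3* KO and 4 empty vector (EV) samples. The EV samples carry the CTL genotype and were transduced with empty vector lentivirus. The *Hdac3* KO samples were transduced with lentivirus bearing an *Hdac3* sgRNA for CRISPR/Cas9, cloned in a lentiCRISPR v2 vector, and whether the stable line was 1 clone is not given in the sources used here. All samples were MCECs, with no other treatment in the labels. The labels do not say whether replicates are separate cultures. The study describes the replicates of its in vitro work in general as typically technical. Elsewhere it says that its figure legends give numbers of biological replicates. The p-values therefore measure the spread between these samples, which may be technical.

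Guidance proteins were named for steering growing axons, and the same ligands and receptors position endothelial and myocardial cells. Class 3 semaphorins are secreted and bind neuropilins, which hold them to plexins, while the other semaphorins sit in the membrane and bind plexins directly. Ephrins and Eph receptors both sit in membranes and signal in both directions between touching cells, Slits bind Robo receptors, and netrins bind Neo1 and Unc5 receptors.

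The recovered library totals lay between 15775327 and 22255684 reads, and listed genes held 84.3% to 85.9% of them. Values per library are normalized counts (reads divided by the relative library size), given in the order of replicates 1 to 4. *Hdac3* itself had 1934, 2067, 2055 and 2137 normalized counts in EV and 1551, 1458, 1489 and 1524 in *Hdac3* KO samples, so that 73.5% of its RNA remained in samples labelled knockout. The study checked the knockout in MCECs by western blot and reports the deletion at the protein level, which RNA counts do not measure. Of 16 endothelial markers the table held 7, of which 6 were lower and 1 was higher (adjusted p under 0.01, edgeR's quasi-likelihood test), beside 49.6% lower and 47.1% higher among all listed genes, with a summed FPKM (reads scaled to gene length and library total) of 120.6 to 123.1 in EV and 91.3 to 94.4 in *Hdac3* KO libraries. Among them *Pecam1*, a defining marker, was close to 0, with 0.516 ± 0.608 normalized counts in EV and 3.97 ± 2.93 in *Hdac3* KO samples (mean ± SD, n = 4). *Cd34* (69.9 to 95.2 FPKM over all libraries) and *Eng* (17.2 to 22.1) made up most of the endothelial sum, so it says little about the other markers. Of 12 fibroblast and mural markers the table held 8, of which 7 were lower and 1 higher beside the same shares of all listed genes. Their summed FPKM was 1527 to 1572 in EV and 1154 to 1177 in *Hdac3* KO libraries. Their median log2 fold change was -1.32, and 5 fell by 1 or more on the log2 scale, where 8.36% of listed genes did. The abundant *Col3a1* (log2 fold change -0.26) and *Col1a1* (0.23) weigh heavily in the sum and moved less. Of 8 cardiomyocyte markers the table held none, and of 8 leukocyte markers it held 1 (*Cd68*, higher). The table lists only genes with the authors' adjusted p-value under 0.05, so a marker outside it may still be expressed. These marker changes ran beside the fall of most guidance genes, and their part in it was not tested. In bulk RNA, fewer cells of a type cannot be told apart from less RNA per cell.

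Most guidance genes were lower in *Hdac3* KO than in EV MCECs. With edgeR's quasi-likelihood test and an adjusted p under 0.01, 37 of 51 were lower, 13 were higher and 1 (*Flrt3*) was not called. Every gene of the table had passed the authors' own test on these libraries, so 96.7% of all listed genes were called here, 49.6% as lower and 47.1% as higher, and only the direction and size of the guidance genes can be read against that. Their median log2 fold change was -0.39, beside 0.06 over all listed genes, and their median absolute log2 fold change was 0.75, beside 0.40. By size, 13 guidance genes fell by 1 or more on the log2 scale, where 8.36% of the listed genes did, and 4 rose by 1 or more, where 4.43% did. In 37 guidance genes every *Hdac3* KO library lay below every EV library (46.6% of the listed genes), and in 11 every *Hdac3* KO library lay above (44.4%). The groups overlapped in *Unc5b*, *Efnb3* and *Sema4f*. Of all 8278 listed genes, 7540 did not overlap, so groups that lie apart are the usual case in this table. Without the TMM factors, which scale library totals to a trimmed mean of gene ratios, the median of all listed genes moved by -0.12. The guidance genes then split into 37 lower and 8 higher with a median of -0.51, and all listed genes into 4120 lower and 2671 higher.

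**Figure D1:**
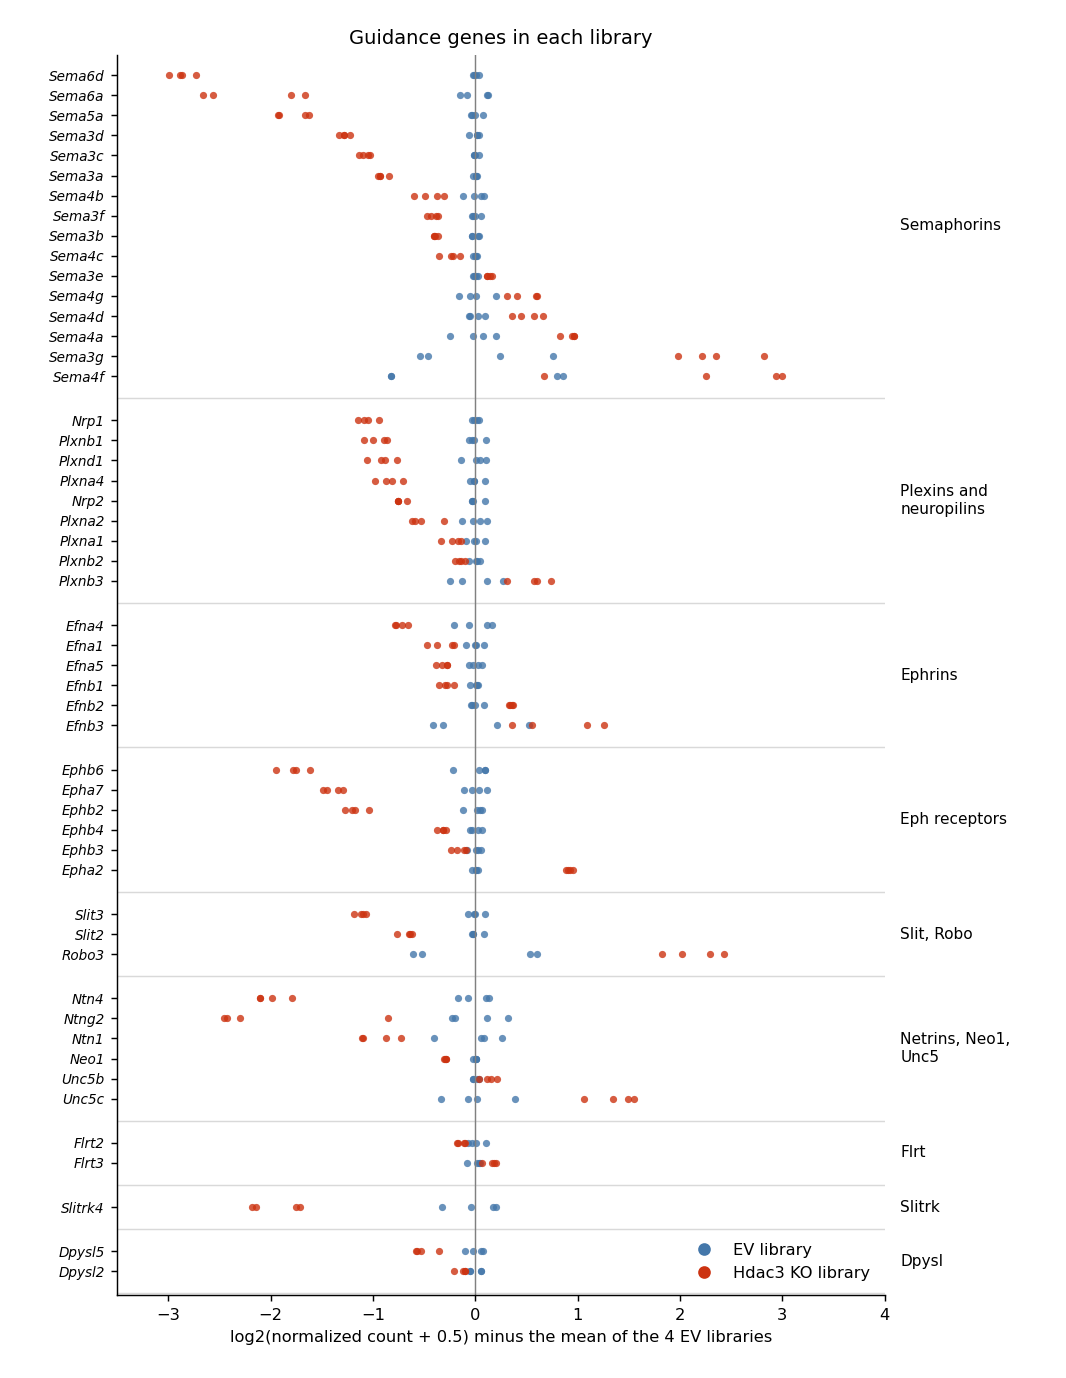
Each point is 1 library of 1 guidance gene, plotted as log2(normalized count + 0.5) minus the mean of the 4 EV libraries, with genes grouped by family on the vertical axis. In 37 genes the *Hdac3* KO points sit left of all EV points, farthest for *Sema6d*, and in 11 they sit right of them.

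Most ligands and most receptors fell. Of 27 ligands, 19 fell and 8 rose (median -0.41 on the log2 scale), and of 19 receptors, 14 fell and 5 rose (median -0.32). Among all listed genes, 49.6% were lower and 47.1% higher, and the family counts below stand beside the same shares. Of the 5 Flrt, Slitrk and Dpysl genes, 4 were lower and 1 was not called. The genes that rose by 1 or more on the log2 scale, *Sema4f*, *Sema3g*, *Robo3* and *Unc5c*, had a mean of 0.251 FPKM or less in either group, whereas *Slit3* and *Sema3c*, among the genes that fell as far, were among the most abundant guidance RNAs.

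**Figure D2:**
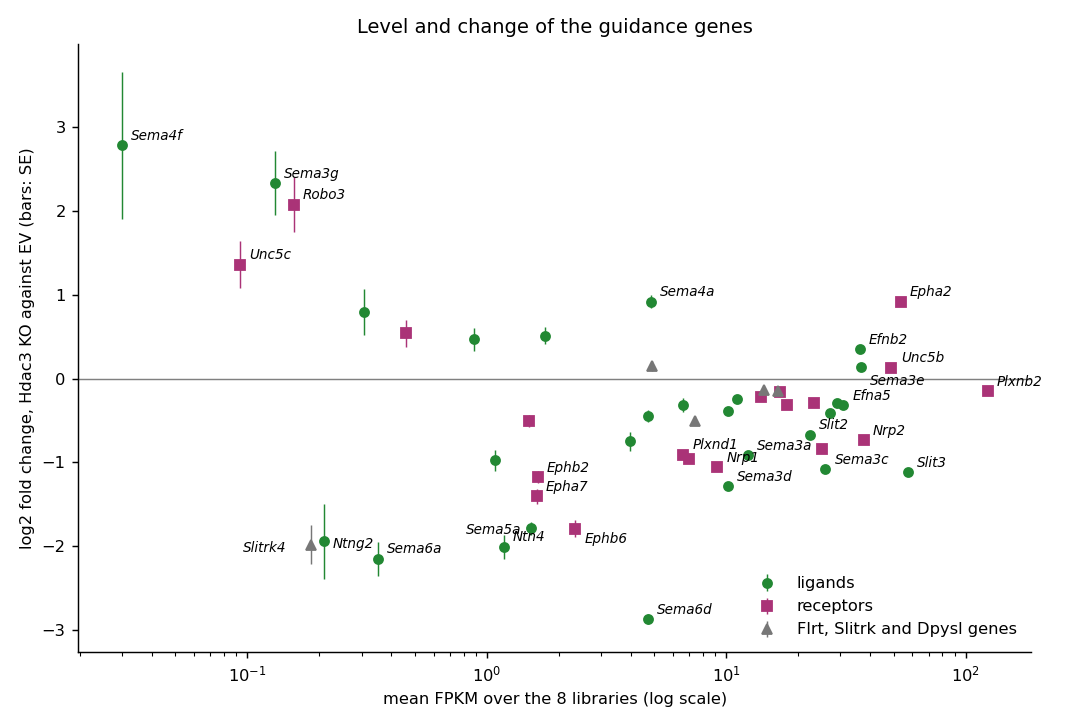
The horizontal axis gives the mean FPKM of each guidance gene over the 8 libraries on a log scale and the vertical axis its log2 fold change in *Hdac3* KO against EV MCECs, with bars for the standard error. Ligands, receptors and the remaining genes have their own marker. Among the abundant genes on the right, *Epha2* lies at 0.91 and *Slit3* at -1.12.

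Among the semaphorins, 10 fell and 6 rose. The largest change among all guidance genes that fell was in *Sema6d*, a transmembrane class 6 semaphorin known to act through plexin A1 in the developing heart. *Sema6d* had 990, 1007, 1027 and 997 normalized counts in EV and 137, 136, 151 and 126 in *Hdac3* KO samples, so the groups were far apart and each was tight. This is a 7.31-fold lower level (log2 fold change -2.87, SE 0.06, edgeR adjusted p 9.04e-30). *Sema6a*, the other class 6 gene in the table and a ligand of plexins A2 and A4, had 69.7, 80.7, 66.6 and 80.3 in EV and 23.0, 20.9, 11.2 and 12.1 in *Hdac3* KO samples (log2 fold change -2.15, SE 0.20). *Sema5a*, a transmembrane semaphorin with thrombospondin repeats, had 486, 513, 474 and 472 in EV and 153, 128, 127 and 157 in *Hdac3* KO samples (log2 fold change -1.78, SE 0.08). The listed genes of classes 5 and 6 all fell, although *Sema5a* and *Sema6a* were low RNAs, with 2.40 and 0.58 FPKM in EV MCECs.

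The secreted class 3 semaphorins fell in 5 of 7 cases. *Sema3d*, which repels endothelial cells during patterning of the pulmonary veins, had 1811, 1839, 1712 and 1813 normalized counts in EV and 735, 709, 737 and 766 in *Hdac3* KO samples (log2 fold change -1.28, SE 0.04). *Sema3c*, which acts on neural crest cells in the outflow tract, had 3675, 3700, 3813 and 3682 in EV and 1735, 1815, 1795 and 1686 in *Hdac3* KO samples (log2 fold change -1.08, SE 0.03). *Sema3a*, the classical repellent that binds neuropilin 1, had 1850, 1810, 1846 and 1854 in EV and 967, 950, 966 and 1021 in *Hdac3* KO samples (log2 fold change -0.91, SE 0.04). In none of these genes did the groups overlap, as in 7540 of the 8278 listed genes. *Sema3f*, a neuropilin 2 ligand, fell less, from 1999, 2125, 2001 and 2037 to 1508, 1583, 1471 and 1558 normalized counts (log2 fold change -0.41, SE 0.03). *Sema3b* fell by 0.39 on the log2 scale (SE 0.05).

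*Sema3e* differed from these. It signals through plexin D1 without a neuropilin and was the most abundant semaphorin over the 8 libraries. It had 4715, 4646, 4559 and 4599 normalized counts in EV and 5174, 5008, 5015 and 5123 in *Hdac3* KO samples (log2 fold change 0.13, SE 0.03, edgeR adjusted p 1.98e-05). The groups did not overlap, as in most listed genes, but without the TMM factors the log2 fold change was 0.02 and was no longer called. On the deposited FPKM scale, which has no such factor, the mean was 36.3 ± 0.58 in EV and 36.7 ± 0.58 in *Hdac3* KO libraries.

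The class 3 genes that share a region of chromosome 5 did not all move the same way. In the mm10 coordinates of the table, *Sema3d* (chr5:12383166-12588943), *Sema3a* (chr5:13396784-13602565), *Sema3e* (chr5:14025276-14256689) and *Sema3c* (chr5:17574281-17730268) lie in this order on the plus strand, with other genes between them. *Sema3e* rose slightly, while the others fell by 0.91 to 1.28 on the log2 scale. On chromosome 9, *Sema3b* (chr9:107597674-107609229) and *Sema3f* (chr9:107681502-107710475) lie near each other on the minus strand, with other genes between them, and fell by 0.39 and 0.41.

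*Sema3g*, a class 3 gene known from arterial endothelium, was near the floor of detection. It had 2, 2, 4 and 7 reads in EV and 17, 30, 16 and 21 reads in *Hdac3* KO libraries. Summed over libraries, 84 against 15 reads give a 5.14-fold higher level with a 95% exact counting interval of 2.94 to 9.59, which covers counting error only.

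The transmembrane class 4 semaphorins went both ways, with 2 lower and 4 higher. *Sema4a*, known from immune cells and endothelium, had 207, 242, 177 and 221 normalized counts in EV and 412, 410, 372 and 405 in *Hdac3* KO samples (log2 fold change 0.92, SE 0.08). *Sema4d*, the ligand of plexin B1, rose by 0.51 (SE 0.10) and *Sema4g* by 0.47 (SE 0.13), the latter not called without the TMM factors. *Sema4c* and *Sema4b* fell by 0.24 and 0.45 on the log2 scale, and *Sema4c* shares 7.27% of its exonic bases with a gene on the opposite strand. *Sema4f* rested on 0, 1, 1 and 0 reads in EV and 6, 1, 7 and 4 in *Hdac3* KO libraries, an 8.26-fold ratio with a counting interval of 1.98 to 73.4, and its fitted log2 fold change was 2.78 (SE 0.88). The call was lost in DESeq2 (3.06), with adjustment over 30000 genes, and without EV replicate 1 or 4 or *Hdac3* KO replicate 1 or 3 (2.36 to 2.58). The sum of class 4 FPKM was 23.9 ± 0.85 in EV and 22.7 ± 0.99 in *Hdac3* KO libraries, within which the share of *Sema4a* was 14.7% ± 1.4 and 27.1% ± 1.7.

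Among plexins and neuropilins, the semaphorin receptors, 8 of 9 fell. *Nrp1*, the coreceptor of class 3 semaphorins and of VEGF, had 1390, 1420.5, 1373 and 1437 normalized counts in EV and 636, 660, 732 and 678 in *Hdac3* KO samples (log2 fold change -1.05, SE 0.04, edgeR adjusted p 1.03e-21). *Nrp2*, the receptor of *Sema3f* and of lymphatic VEGF, had 5936, 6488, 6006 and 5932 in EV and 3605, 3836, 3597 and 3599 in *Hdac3* KO samples (log2 fold change -0.73, SE 0.03). Replicate 2 was the high library in either group.

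*Plxnd1*, the endothelial plexin that binds *Sema3e*, had 1036, 1227, 1179 and 1150 normalized counts in EV and 619, 674, 551 and 606 in *Hdac3* KO samples (log2 fold change -0.91, SE 0.05). *Plxna2*, a plexin of cardiac neural crest, had 370, 386, 342 and 404 in EV and 249.3, 303, 260 and 245 in *Hdac3* KO samples (log2 fold change -0.51, SE 0.07). Neither gene's groups overlapped, as in most listed genes. *Plxna4* (fell by 0.84, SE 0.04) and *Plxnb1* (fell by 0.96, SE 0.05) moved by similar amounts, and *Plxna1* fell by 0.22 (SE 0.04), with 10.7% of its exonic bases shared with a gene on the opposite strand.

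*Plxnb2*, the most abundant guidance RNA in every library, changed least of the called plexins, with 15502, 16733, 16360 and 16274 normalized counts in EV and 15086, 14711, 14129 and 14462 in *Hdac3* KO samples (log2 fold change -0.15, SE 0.03). *Plxnb3*, a low RNA and the receptor of *Sema5a*, was the exception in direction, at 45.3 ± 7.38 in EV and 66.6 ± 8.23 in *Hdac3* KO samples (log2 fold change 0.54, SE 0.16). Its call was lost without the TMM factors (0.42) and without EV replicate 1 (0.47). The summed FPKM of plexins and neuropilins was 266 ± 8.73 in EV and 185 ± 5.80 in *Hdac3* KO libraries, while the share of *Plxnb2* in it was 50.9% ± 0.55 and 60.8% ± 0.79.

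Ephrins, the ligands of Eph receptors, had a median absolute log2 fold change of 0.33, beside 0.75 for all guidance genes. The 3 listed A-type ephrins, which are held by a lipid anchor, were all lower. *Efna1*, the main ligand of *Epha2*, had 233, 218, 246 and 231 normalized counts in EV and 201, 198, 167 and 179 in *Hdac3* KO samples (log2 fold change -0.32, SE 0.08). *Efna5* fell by 0.32 (SE 0.03) and *Efna4* by 0.75 (SE 0.11), of which 10.5% of exonic bases are shared with a gene on the opposite strand. Of the transmembrane B-type ephrins, *Efnb1* fell by 0.29 (SE 0.03).

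*Efnb2*, the ephrin of arterial endothelium and the most abundant by mean FPKM over the 8 libraries, rose. It had 2624, 2840, 2602 and 2686 normalized counts in EV and 3445, 3462, 3364 and 3402 in *Hdac3* KO samples, with no overlap, as in most listed genes (log2 fold change 0.35, SE 0.03, edgeR adjusted p 1.4e-12). Its share of the ephrin FPKM was 29.0% ± 0.69 in EV and 39.4% ± 0.52 in *Hdac3* KO libraries. *Efnb3* had 9 to 22 reads in EV and 19 to 35 in *Hdac3* KO libraries, the groups overlapped, and its call (log2 fold change 0.79, SE 0.28) was lost under 8 of 17 alternatives, among them leaving out EV replicate 1, 2 or 3 or *Hdac3* KO replicate 3 or 4 (log2 fold change 0.63 to 0.84).

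Of the Eph receptors, 5 fell and 1 rose. *Epha2*, a receptor of *Efna1* in endothelial and epithelial cells, had 2788, 2905, 2867 and 2876 normalized counts in EV and 5538, 5342, 5278 and 5412 in *Hdac3* KO samples, an increase of 1.89-fold (log2 fold change 0.91, SE 0.03, edgeR adjusted p 2.16e-25). It became the second most abundant guidance RNA by FPKM, at 67.9 ± 1.41, from the fifth at 39.1 ± 0.57 in EV libraries. *Epha7*, the other A-type receptor, went the opposite way, from 308, 294, 279 and 327 to 122.5, 110, 107 and 119 normalized counts (log2 fold change -1.40, SE 0.09).

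The 4 B-type receptors were all lower. *Ephb6*, which lacks kinase activity, had 276, 222, 276 and 265 normalized counts in EV and 83.8, 76.5, 66.5 and 74.7 in *Hdac3* KO samples (log2 fold change -1.79, SE 0.10). *Ephb2* had 434, 494, 476 and 486 in EV and 195, 229, 204 and 208 in *Hdac3* KO samples (log2 fold change -1.18, SE 0.07). These were minor members by level, with 3.69 and 2.32 FPKM in EV libraries. *Ephb4*, the *Efnb2* receptor of venous endothelium, fell less, from 1715, 1755, 1620 and 1648 to 1379, 1354, 1302 and 1356 normalized counts (log2 fold change -0.32, SE 0.04), and *Ephb3* fell by 0.16 (SE 0.04). The share of *Epha2* in the Eph receptor FPKM was 45.1% ± 0.31 in EV and 67.1% ± 0.52 in *Hdac3* KO libraries.

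**Figure D3:**
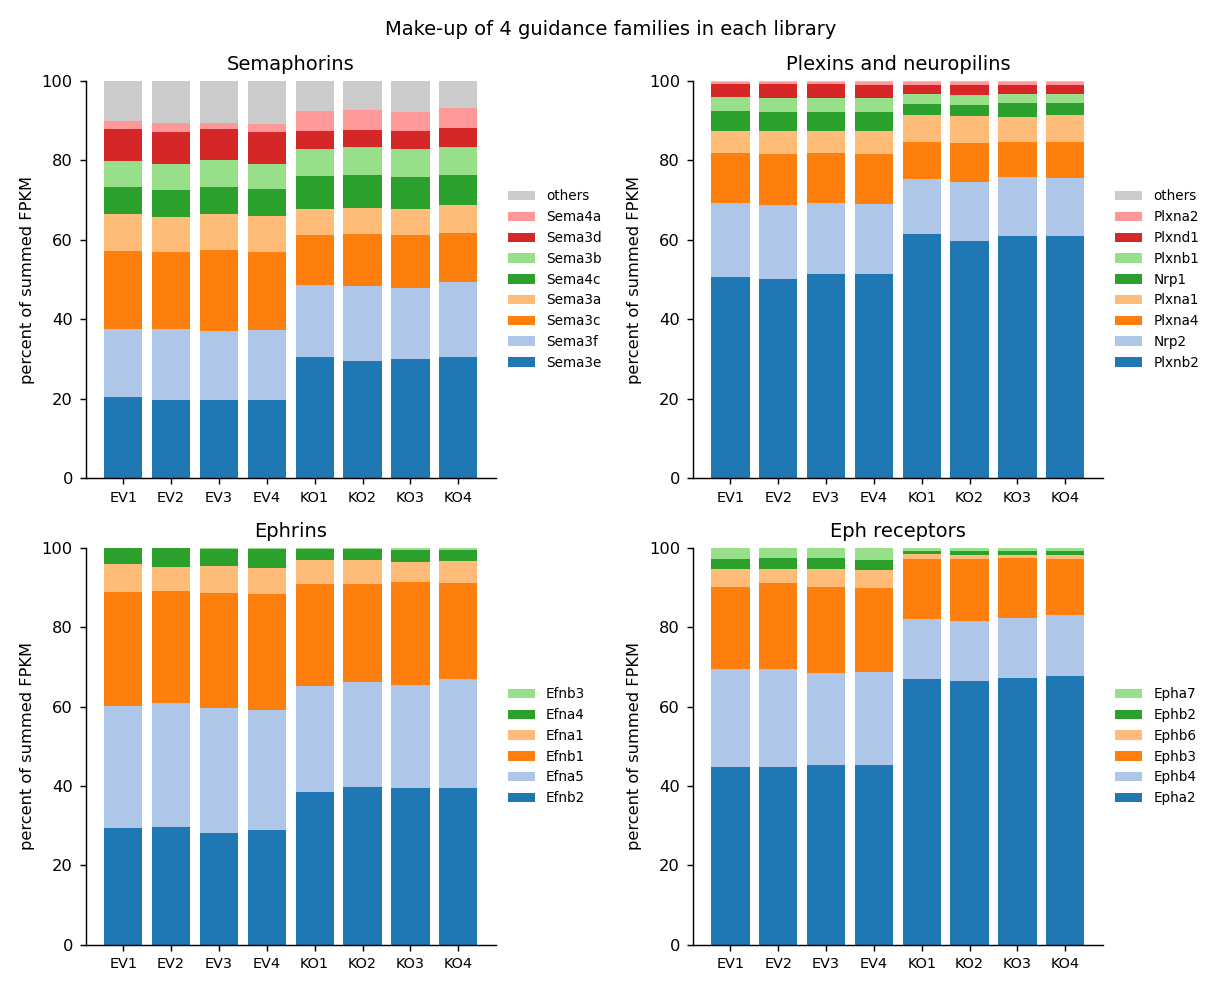
Each bar is 1 library and shows the percentage of the summed FPKM of the listed family members that each gene holds, for semaphorins, plexins and neuropilins, ephrins and Eph receptors; genes past the first 8 are pooled. *Sema3e*, *Plxnb2*, *Efnb2* and *Epha2* hold a larger share in each *Hdac3* KO library than in each EV library.

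*Slit3* and *Slit2* encode secreted ligands of Robo receptors. *Slit3*, the second most abundant guidance RNA in EV libraries by FPKM, had 7512, 8404, 7856 and 7847 normalized counts in EV and 3639, 3768, 3470 and 3687 in *Hdac3* KO samples, a 2.17-fold lower level (log2 fold change -1.12, SE 0.03, edgeR adjusted p 1.8e-26). *Slit2* had 3527, 3841, 3545 and 3560 in EV and 2317, 2312, 2129 and 2350 in *Hdac3* KO samples (log2 fold change -0.67, SE 0.03). The groups were apart in both, as in most listed genes. *Robo3*, the Robo member in the table, had 3, 3, 8 and 9 reads in EV and 22, 22, 33 and 30 in *Hdac3* KO libraries, a 4.27-fold ratio with a 95% exact counting interval of 2.70 to 7.02.

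Among netrins and their receptors, 4 fell and 2 rose. *Ntn4*, a netrin of basement membranes related to laminin, had 143, 116, 140.4 and 124 normalized counts in EV and 32.5, 37.3, 29.99 and 29.9 in *Hdac3* KO samples (log2 fold change -2.01, SE 0.14, edgeR adjusted p 7.06e-15). *Ntn1* had 120.5, 191, 165 and 170 in EV and 86.9, 73.8, 74.0 and 96.1 in *Hdac3* KO samples (log2 fold change -0.98, SE 0.13). EV replicate 1 was the low EV library for *Ntn1*, yet above each *Hdac3* KO library. *Ntng2*, a netrin held by a lipid anchor, had 10 to 13 reads in EV and 2 to 7 in *Hdac3* KO libraries, a 3.94-fold lower level with a counting interval of 2.10 to 7.94, and 14% of its exonic bases are shared with a gene on the same strand. Its fitted log2 fold change was -1.94, and -2.59 without *Hdac3* KO replicate 3, the library with 7 reads.

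The receptors moved little where they were abundant. *Unc5b*, the netrin receptor of endothelial tip cells, had 5201, 5372, 5206 and 5441 normalized counts in EV and 6133, 5903, 5420 and 5737 in *Hdac3* KO samples, with overlapping groups (log2 fold change 0.13, SE 0.03). Without the TMM factors its log2 fold change was 0.01 and not called. *Neo1*, the neogenin receptor, fell by 0.30 (SE 0.03). *Unc5c* had 8, 8, 7 and 14 reads in EV and 27, 22, 26 and 29 in *Hdac3* KO libraries, a 2.58-fold ratio with a counting interval of 1.76 to 3.86, at 0.05 and 0.13 FPKM.

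Of the remaining genes, *Slitrk4*, a membrane protein of synapses, had 53.2, 54.2, 37.4 and 45.9 normalized counts in EV and 13.6, 10.02, 10.3 and 14 in *Hdac3* KO samples (log2 fold change -1.98, SE 0.23). *Flrt2*, a ligand of Unc5 receptors, had 2250, 2547, 2382 and 2309 in EV and 2186, 2109, 2093 and 2201 in *Hdac3* KO samples (log2 fold change -0.14, SE 0.03). *Flrt3* had 362 ± 14.5 and 401 ± 16.9 (log2 fold change 0.15, SE 0.06, edgeR adjusted p 0.02), and was called without *Hdac3* KO replicate 1 (0.18). *Dpysl2*, a cytosolic mediator of semaphorin 3A signalling, had 1277, 1372, 1271 and 1374 in EV and 1228, 1140, 1236 and 1212 in *Hdac3* KO samples (log2 fold change -0.14, SE 0.04), a call that was lost without EV replicate 4 (-0.12) or *Hdac3* KO replicate 2 (-0.11). *Dpysl5* fell by 0.50 (SE 0.05). *Slitrk4* thus changed most of these 5 genes but was a low RNA, at 0.30 FPKM in EV libraries.

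Ratios of ligand to receptor RNA within a library do not depend on library scaling. *Sema3e* over *Plxnd1* was 4.10 ± 0.35 in EV and 8.44 ± 0.70 in *Hdac3* KO libraries. *Efnb2* over *Ephb4* was 1.60 ± 0.05 and 2.55 ± 0.04, and *Sema4d* over *Plxnb1* was 0.158 ± 0.012 and 0.440 ± 0.037. These ratios were higher in each *Hdac3* KO library than in each EV library. In the other direction, *Sema6d* over *Plxna1* was 0.538 ± 0.027 in EV and 0.0858 ± 0.0106 in *Hdac3* KO libraries, *Efna1* over *Epha2* 0.195 ± 0.011 and 0.0827 ± 0.0062, and *Ntn4* over *Neo1* 0.0721 ± 0.0076 and 0.0219 ± 0.0023. *Sema3c* over *Nrp2* was 0.748 ± 0.035 and 0.588 ± 0.016. *Sema3a* over *Nrp1* was 1.30 ± 0.03 and 1.44 ± 0.09, and *Flrt3* over *Unc5b* was 0.100 ± 0.003 and 0.102 ± 0.008. The last 2 pairs overlapped between groups. No test was run on these ratios, which describe RNA and not binding.

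**Figure D4:**
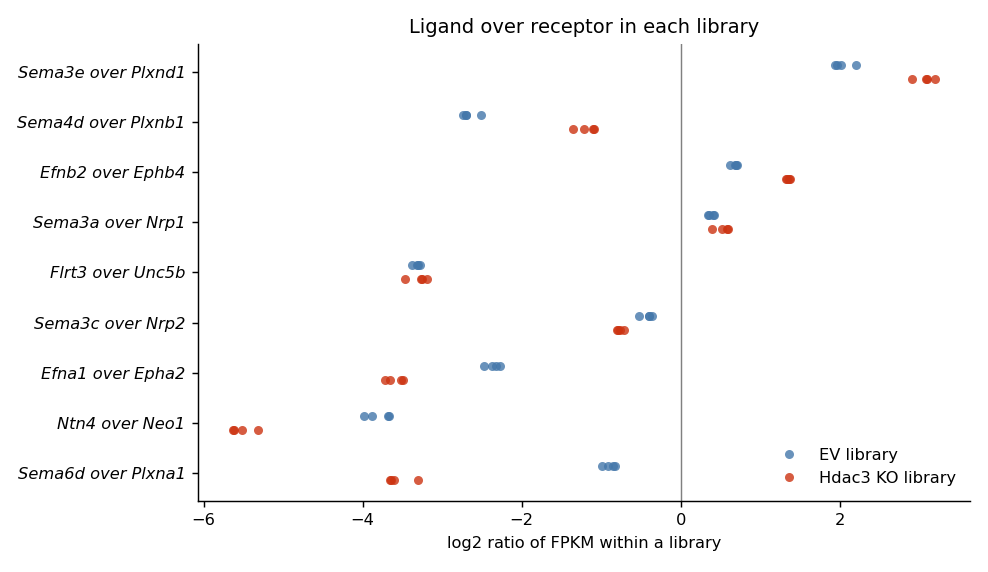
Each point is 1 library and gives the log2 ratio of ligand FPKM to receptor FPKM. *Hdac3* KO points lie right of EV points for *Sema3e* over *Plxnd1*, *Sema4d* over *Plxnb1* and *Efnb2* over *Ephb4*, and left of them for *Sema3c* over *Nrp2*, *Efna1* over *Epha2*, *Ntn4* over *Neo1* and *Sema6d* over *Plxna1*.

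By FPKM, which compares genes per length, the order of guidance RNAs in EV libraries was *Plxnb2* (136 ± 3.97), *Slit3* (80.8 ± 3.56), *Unc5b* (48.5 ± 0.93) and *Nrp2* (48.4 ± 2.03), then *Epha2* (39.1 ± 0.57), *Sema3e* (36.3 ± 0.58), *Sema3c* (36.2 ± 0.69) and *Efna5* (35.5 ± 1.26). *Unc5b* and *Nrp2* did not differ beyond their spread, and neither did *Sema3e*, *Sema3c* and *Efna5*. In *Hdac3* KO libraries the order was *Plxnb2* (112 ± 3.22), *Epha2* (67.9 ± 1.41), *Unc5b* (48.8 ± 2.56), *Efnb2* (38.9 ± 0.55), *Sema3e* (36.7 ± 0.58) and *Slit3* (34.3 ± 1.19), which had separate ranges, followed by *Nrp2* and *Efna5*, whose ranges overlapped. *Sema3c* moved from rank 7 to rank 14 by mean. In *Hdac3* KO libraries its range overlapped those of *Plxna4*, *Slit2*, *Ephb4*, *Ephb3* and *Flrt2*, so the latter rank is not resolved. At the low end, *Robo3*, *Unc5c*, *Sema3g* and *Sema4f* were at a mean of 0.0618 FPKM or less in EV libraries.

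Proteins that work with guidance receptors were read from lists written by function. Of 22 membrane partners and further ligands, 13 were in the table, and all 13 fell, by a median of 0.54 on the log2 scale, beside 49.6% lower and a median of 0.06 among all listed genes. Among these were *Itga1*, a collagen-binding integrin chain (-2.20, SE 0.13), *Kdr*, the VEGF receptor that pairs with *Nrp1* (-1.20, SE 0.24), *Furin*, the protease that processes class 3 semaphorins (-0.76, SE 0.04), *Ptprs*, a receptor phosphatase (-0.69, SE 0.03), and *Met*, a partner of plexin B1 (-0.59, SE 0.03). *Kdr* rested on few reads, and its lowest EV library (35.4 normalized counts) was close to the highest *Hdac3* KO library (34.6).

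Of 67 intracellular effectors, 51 were in the table, of which 29 were lower, 18 higher and 4 not called, with a median of -0.25 on the log2 scale, beside 49.6% lower, 47.1% higher and a median of 0.06 among all listed genes. Without the TMM factors, 29 were lower and 12 higher. The largest changes were in *Kalrn* (-1.74, SE 0.14) and *Vav2* (-0.99, SE 0.03), exchange factors for small GTPases, *Srgap1* (-1.71, SE 0.31), a GTPase-activating protein downstream of Robo, *Rnd1* (1.004, SE 0.03), a plexin-binding GTPase, and *Ngef* (-0.95, SE 0.27), the exchange factor ephexin downstream of Eph receptors. *Srgap1* and *Ngef* were low RNAs, with means of 23.0 and 24.7 normalized counts in EV samples, and for *Ngef* the groups overlapped (15.5 in EV replicate 2 and 15.9 in *Hdac3* KO replicate 4). The GTPases *Rac1* (0.26, SE 0.02), *Rhoa* (0.19, SE 0.03) and *Cdc42* (0.40, SE 0.03), named here for their place in the pathway after their values were seen, rose.

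Promoter sequence was looked at for genes that moved far or in opposite directions. RefSeq start sites on GRCm38.p6 matched 42 of 51 guidance genes and 6035 of 7976 protein-coding genes of the table. The 250 bases before the start site are shown for the guidance gene that fell most, the netrin gene that fell most, and *Epha2* and *Efnb2*, an abundant receptor and an abundant ligand that rose, written 5′ to 3′ along the gene, with capitals on the motifs found on either strand. The RefSeq start site of *Ntn4* lies 368 bases inside the gene as the table places it, so its window is within the table's gene. That of *Efnb2* lies 469 bases before the table's gene, that of *Epha2* 19 bases before it, and that of *Sema6d* at its start.
Sema6d upstream of the start site, chr2:124089719-124089968, plus strand: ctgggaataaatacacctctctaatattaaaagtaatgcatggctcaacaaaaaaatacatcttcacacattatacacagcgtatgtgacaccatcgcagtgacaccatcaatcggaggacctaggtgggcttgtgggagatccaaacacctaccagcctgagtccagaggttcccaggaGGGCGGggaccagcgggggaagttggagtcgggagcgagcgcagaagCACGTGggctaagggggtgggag
Ntn4 upstream of the start site, chr10:93640799-93641048, plus strand: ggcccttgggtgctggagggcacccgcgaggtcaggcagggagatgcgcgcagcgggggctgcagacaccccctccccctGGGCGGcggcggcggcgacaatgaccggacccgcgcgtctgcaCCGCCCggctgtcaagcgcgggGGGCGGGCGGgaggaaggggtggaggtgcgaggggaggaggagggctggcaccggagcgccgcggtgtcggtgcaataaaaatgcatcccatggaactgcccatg
Epha2 upstream of the start site, chr4:141300971-141301220, plus strand: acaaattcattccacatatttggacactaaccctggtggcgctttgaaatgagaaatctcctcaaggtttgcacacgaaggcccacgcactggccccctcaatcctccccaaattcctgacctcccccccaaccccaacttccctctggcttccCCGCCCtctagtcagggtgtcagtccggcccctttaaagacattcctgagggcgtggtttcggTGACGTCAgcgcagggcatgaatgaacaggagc
Efnb2 upstream of the start site, chr8:8661243-8661492, minus strand: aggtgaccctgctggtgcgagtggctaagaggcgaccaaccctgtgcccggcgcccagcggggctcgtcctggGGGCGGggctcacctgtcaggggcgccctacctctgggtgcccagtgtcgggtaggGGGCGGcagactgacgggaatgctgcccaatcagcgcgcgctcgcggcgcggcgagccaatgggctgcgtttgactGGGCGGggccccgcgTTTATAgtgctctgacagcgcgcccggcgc

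The motifs were searched on both strands. The GC box was searched as GGGCGG, a site of Sp factors. The E-box was searched as CACGTG, which bHLH factors bind. The TATA box of core promoters was searched as TATAAA and the cAMP response element as TGACGTCA. For the AP-1 site the letters were TGANTCA. For ETS factors, which are prominent in endothelial cells, they were CCGGAAG. *Sema6d* has a GC box beginning 70 bases and an E-box beginning 23 bases before the start site. *Ntn4* has 4 GC boxes, of which the nearest pair overlap, *Epha2* a GC box at 96 and a cAMP response element at 33, and *Efnb2* 3 GC boxes and a TATA box at 30 bases before the start. A GC box was in 71.4% of the 42 guidance gene promoters and in 62.5% of all 6035. The cAMP response element of *Epha2* was the single match among the 42 and is in 2.90% of all promoters. The E-box was in 4.76% and 8.96%, and the ETS site in 4.76% and 14.3%. The median GC content was 64.4% for guidance genes and 60.4% for all. These matches describe letters in the window and not binding.

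The study also worked with the microRNA miR-129-5p, whose levels are not in the table. Its mature RefSeq sequence is shown with the seed, bases 2 to 8, in capitals, followed by the 27-base stretches around each seed match (GCAAAAA, in capitals) in the longest annotated 3′ UTR of the guidance genes.
miR-129-5p: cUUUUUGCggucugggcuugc
Efnb2 site at base 1600 of its 3′ UTR, chr8:8618972-8618998, minus strand: agagcaaatgGCAAAAAtaacacggtc
Efnb2 site at base 2009 of its 3′ UTR, chr8:8618563-8618589, minus strand: gtgagtacctGCAAAAAtgagttgtca
Ephb2 site at base 4251 of its 3′ UTR, chr4:136651055-136651081, minus strand: acagtgcagcGCAAAAAcatctggagg
Sema3d site at base 435 of its 3′ UTR, chr5:12585727-12585753, plus strand: gcttatgttaGCAAAAAaaaaactttc
Sema3d site at base 940 of its 3′ UTR, chr5:12586232-12586258, plus strand: caaattgttaGCAAAAAtgcaagtgaa
Sema3d site at base 1762 of its 3′ UTR, chr5:12587054-12587080, plus strand: cttggaaaaaGCAAAAAtgaaggaaca
Unc5b site at base 501 of its 3′ UTR, chr10:60764691-60764717, minus strand: tagtgagagaGCAAAAAcagtaagggc

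Such a match was present in 4 of 51 guidance genes (7.84%) and in 948 of 7922 protein-coding genes with a 3′ UTR (11.97%). These shares are not adjusted for length, and the median 3′ UTR was 1973 bases for guidance genes and 1231.5 for the protein-coding genes. The 4 genes differed in direction, with *Sema3d* and *Ephb2* lower and *Efnb2* and *Unc5b* higher in *Hdac3* KO MCECs. A match is a description of sequence and not a measured site of action.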

How the data were processed

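RNA of MCECs was sequenced in 8 bulk libraries, 4 per group. Reads were aligned to mm10 with tophat2 and bowtie2 by the authors, and the submitters' processing notes name CASAVA and DESeq 1.6.3. The study's methods name lumi for normalization and for the count matrix, and both the cufflinks suite and DESeq2 for differential expression. Which of these tools made the deposited counts, and with which annotation and use of strand, is not given in the sources used here. The authors deposited unnormalized read counts for each gene and library. Beside them they deposited FPKM, in which the count is divided by gene length and library total. The table holds 8278 genes, each with the authors' adjusted p-value under 0.05. Its columns of group means, log2 fold changes, p-values and adjusted p-values, and 2 further tables of subsets of the genes, were not used.

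Library totals were recovered from count, length and FPKM. All 8278 genes were tested with edgeR 4.0.16 (R 4.3.3, quasi-likelihood test, library totals multiplied by TMM factors, group as the sole term) with Benjamini-Hochberg adjustment and a cut-off of 0.01, and the procedure was tested on simulated data. The common coefficient of variation was 2.82%. The smallest log2 change called at this depth was 0.07. The reads carry no molecular identifiers, so intervals cover counting error only. No gene was filtered, and 1 guidance gene (*Sema4f*) would not pass a minimum of 10 counts.

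The members and lists were chosen with earlier results of these data known. A further marker list is not reported here. Members with values per library were the 12 largest non-overlapping changes of genes whose higher group averaged 20 normalized counts or more, the most abundant gene of each family, and genes with a known role in endothelium or heart. Outside this rule, the values per library of *Sema4a* and *Sema4f*, the other genes named, and the *Rac1*, *Rhoa* and *Cdc42* values were chosen after they were seen. Replicate libraries differed by more than sampling noise (chi-square per gene 1.79 or more). Alternatives were DESeq2 1.42.0, other scalings, a low-count filter, protein-coding genes alone, adjustment over 30000 genes, another cut-off, a replicate block and leaving out each library. Promoter and microRNA sequences were from RefSeq (GRCm38.p6), and 3′ UTRs from GENCODE M21 transcripts of the same build.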

Additional observations from a re-analysis of the deposited data

Results flagged for a closer look

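In 6 of 102 groups of 4 libraries (51 guidance genes in 2 groups), 1 library stood far from the other 3 (gap over range above the critical value for 4 samples), where chance gives about 1 in 20, or 5.1. For *Nrp2*, replicate 2 was high both in EV (6488 normalized counts against 5932 to 6006 in the others, gap over range 0.867) and in *Hdac3* KO samples (3836 against 3597 to 3605, 0.968). For *Slit2*, EV replicate 2 was high (3841 against 3527 to 3560, 0.895). For *Neo1*, EV replicate 3 was low (3618 against 3702 to 3710, 0.916). For *Sema4a*, *Hdac3* KO replicate 3 was low (372 against 405 to 412, 0.834), and for *Ntng2* it was high (6.56 against 1.82 to 2.09, 0.942). Each of these 5 genes kept its call and direction when any library was left out. For *Ntng2*, the log2 fold change was -1.94 with all libraries and -2.59 without *Hdac3* KO replicate 3.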

How the results depend on the processing

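Without the TMM factors, 8 guidance genes in place of 13 were called higher, and the median log2 fold change of the guidance genes was -0.51 in place of -0.39, while 37 stayed the number called lower. Among calls, the share of lower genes was 74.0% with and 82.2% without these factors, beside 51.3% and 60.7% for all listed genes. Leaving out each library in turn gave 36 to 37 lower and 10 to 13 higher guidance genes with a median between -0.40 and -0.38. With the replicate number as a block, 37 were lower and 13 higher. Deviations of same-numbered libraries correlated between -0.09 and 0.10, and of other pairs between -0.13 and 0.12. The labels name no shared batch, and whether same-numbered libraries shared one was not tested further. The block changed no call of a guidance gene. No guidance gene changed direction under the alternatives run for it (17, or 16 for *Sema4f*, which the filter at 10 counts removes), and 43 of 51 kept their call and direction under each. The 8 others were *Dpysl2*, *Efnb3*, *Flrt3*, *Plxnb3*, *Sema3e*, *Sema4f*, *Sema4g* and *Unc5b*; for *Flrt3*, the call was gained at a cut-off of 0.05 or without *Hdac3* KO replicate 1. *Dpysl2* lost its call without EV replicate 4 or *Hdac3* KO replicate 2. The cause of these changes was not tested. Few reads limit *Sema4f*, *Sema3g*, *Robo3*, *Unc5c* and *Ntng2*. Guidance genes outside the table were not analysed here.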
